A study of Mus musculus with 6 samples.

Results

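CpGs followed by a pyrimidine are CpG dinucleotides whose guanine has cytosine or thymine as its next base on the same strand. They were selected from autosomal cytosines that had a methylation level in all 6 libraries of the study. The 5 bases of context given with each cytosine were read along the cytosine's own strand, so that the CpG stands in the middle with 2 bases before it and 1 after it. Of 369208 such cytosines, 140133 (38.0%) were followed by a pyrimidine, 100879 by cytosine and 39254 by thymine, with 70067 on the plus strand and 70066 on the minus strand. The selection used sequence and the presence of a level, and no methylation value.

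The libraries were made by reduced representation bisulfite sequencing (RRBS), in which genomic DNA is cut with MspI at CCGG, so that CpG-rich DNA is enriched, and bisulfite leaves 5-methylcytosine and 5-hydroxymethylcytosine to be read as cytosine. All were from E14 mouse embryonic stem cells, and they carried short hairpin RNAs (shRNAs) against Dnmt1, against Dnmt3a, against Dnmt3a and Dnmt3b together, against Dnmt3b, against Tet1 and Tet2 together, or a control shRNA, with 1 library per group. The title of the Dnmt1 library names its target as Dnmt1a, and its treatment label, which was followed, names Dnmt1. A knockdown leaves some of its target, and how much protein remained is not known from these data. Each difference is therefore between 2 libraries, without a replicate check or a test, and the 5 knockdowns share their control. Each ± is the SD between the 19 autosomes of a library pair, which shows how even a value was along the genome and not the error of a repeated culture. Read depth per cytosine is unknown, because levels came without counts.

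DNMT1 copies methylation onto the new strand after replication, with UHRF1 bringing it to CpGs methylated on 1 strand only. DNMT3A and DNMT3B methylate unmodified CpGs, and TET1 and TET2 oxidise 5-methylcytosine, the first step toward its loss. Biochemical work on purified enzymes has shown that the bases flanking a CpG affect how readily these methyltransferases act on it: DNMT3A favours a pyrimidine just after the CpG and DNMT3B a purine.

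The 32 possible contexts of this kind are written 5′ to 3′ along the cytosine's strand, with the CpG in capitals and its neighbours in lower case. The 10 shown here stand at or near the ends of the ranges given with the results of 3 knockdowns. The first 4 are among the ends of the share of methylation kept by highly methylated cytosines after Dnmt1 knockdown, and were chosen after their values were seen. The others are the lowest or the highest among cytosines of intermediate level, counting only contexts with at least 200 of these.
Dnmt1, large share kept: tcCGc
Dnmt1, large share kept: taCGc
Dnmt1, small share kept: ggCGt
Dnmt1, small share kept: agCGt
Dnmt3a, large loss: ctCGc
Dnmt3a, large loss: gaCGt
Dnmt3a, small loss: atCGt
Dnmt3a, small loss: atCGc
Tet1 and Tet2, large gain: gcCGt
Tet1 and Tet2, small gain: cgCGc

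Most of the cytosines were hardly methylated. By the median level over the 6 libraries, 110202 (78.6%) were low (below 20%), 15636 (11.2%) intermediate (20 to 80%) and 14295 (10.2%) high (above 80%). Those followed by cytosine were low more often, at 84.0%, than those followed by thymine, at 65.0%. They also lay in denser sequence, with a median of 9 other listed cytosines within 100 bp against 5 for those followed by thymine. The comparison set was 119653 CpGs followed by a purine outside MspI sites, of which 75.8% were low, 12.9% intermediate and 11.3% high, with a median of 7 listed neighbours. MspI sites themselves, 109422 cytosines, were kept apart, since CCGG fixes a guanine after the CpG and a cytosine before it and places the cytosine at a cut end.

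The selection asks for a level in every library, and the Dnmt1 library listed the fewest cytosines. Of 263221 autosomal CpGs followed by a pyrimidine with a level in any library, 53.2% had one in all 6. Among those listed in the 5 other libraries, 32.2% of high, 24.8% of intermediate and 9.78% of low ones were missing from the Dnmt1 library, against 31.0%, 24.5% and 9.59% of those followed by a purine. Mitochondrial CpGs followed by a pyrimidine, 38 in each library, read between 0 and 0.124% on average, with 0 in control, which shows the level read at DNA with next to no methylation.

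Over all classes the 140133 cytosines averaged 3.86% in the Dnmt1 knockdown, 14.0% in the Dnmt3a knockdown, 15.1% in the double Dnmt3a and Dnmt3b knockdown, 17.9% in the Dnmt3b knockdown and 18.4% in the Tet1 and Tet2 knockdown, against 17.3% in control. Intermediate cytosines averaged 11.01%, 45.4%, 51.0%, 65.3% and 68.0% in the same order of knockdowns, against 62.6% in control. High cytosines averaged 23.3%, 84.0%, 86.9%, 91.0% and 91.3%, against 90.4% in control. Low cytosines averaged 0.319%, 0.520%, 0.627%, 1.75% and 1.95%, against 1.42% in control. In every class the Dnmt1, Dnmt3a and double knockdown libraries were below control, and the libraries of the Dnmt3b knockdown and of the Tet knockdown above it, on 19 of 19 autosomes.

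How far a level differed varied with the median level over the 6 libraries, which includes the knockdowns. With Dnmt3a knockdown the difference from control was -0.372 points for cytosines with a median below 5%, -18.0 points from 20 to 40%, -20.4 points from 40 to 60% and -6.47 points from 80% up. In the Tet1 and Tet2 knockdown, which shares the control, it was 0.271, 6.78, 6.92 and 0.883 points in the same bins. In the Dnmt3b knockdown it was largest further down the scale, with 4.12 points from 20 to 40% and 1.74 points from 60 to 80%. In the Dnmt1 knockdown the points lost grew with the level, while the share of the control level that was kept lay between 17.1% and 25.8% in all 6 bins.

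**Figure D1:**
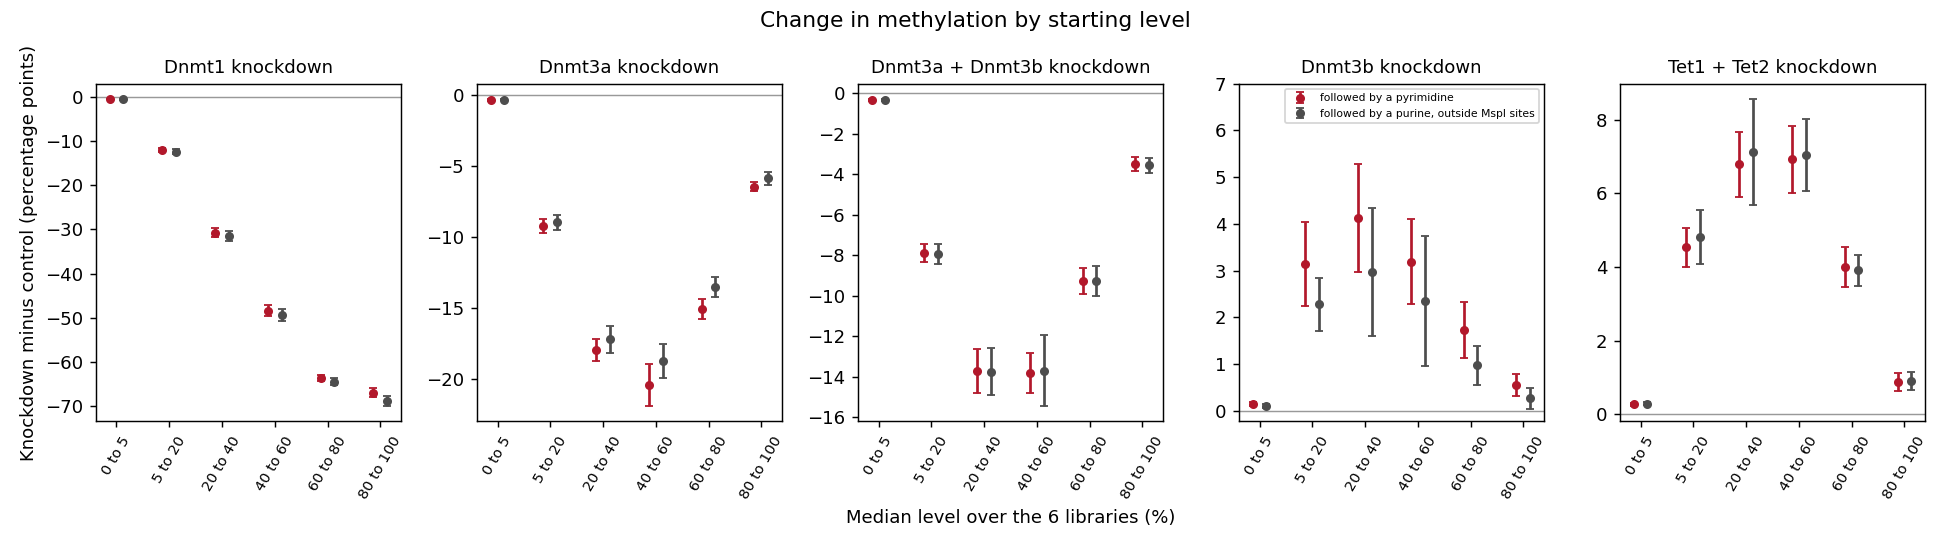
Mean difference in methylation level, knockdown minus control, in percentage points (y axis), by the median level over the 6 libraries in percent (x axis). Red points are CpGs followed by a pyrimidine, grey points CpGs followed by a purine outside MspI sites, and bars are the SD over 19 autosomes. Both kinds follow a similar curve in each knockdown, with red below grey from 5% up for Dnmt3a and above grey for Dnmt3b. The bars overlap throughout for Dnmt3b, for the double knockdown and for Tet1 and Tet2. For Dnmt3a they overlap in every bin except 60 to 80%.

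Of the 5 knockdowns, that of Dnmt1 had the lowest levels at these CpGs. Of the 140133 cytosines, 30119 (21.5%) were lower by at least 20 points, where 31.8% of all cytosines tested were, and 15 were higher by as much, where 0.00813% of all were. Low cytosines, with a median over the 6 libraries under 20%, make up 78.6% of them and 68.4% of all cytosines tested. Within the intermediate class 96.2% were lower by at least 20 points, against 96.8% of those followed by a purine. Intermediate cytosines were lower by 51.5 points ± 0.88 (SD over autosomes) and kept 17.6% ± 0.846 of their control level. High cytosines were lower by 67.1 points ± 0.99 and kept 25.8% ± 1.26, while high cytosines followed by a purine kept 23.4% ± 1.30.

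The difference in loss between the 2 kinds was clearest at high levels. High cytosines followed by a pyrimidine fell by 67.1 points and those followed by a purine by 68.9, a difference of 1.86 points ± 0.63 with the same sign on 19 of 19 autosomes. It was 1.73 points when levels were matched in 10-point bins and 1.35 points between high cytosines of the same cluster, a cluster being a run of listed cytosines at most 100 bp apart. Among intermediate cytosines the difference was 1.37 points ± 1.11, positive on 16 of 19 autosomes, 0.857 points with matched levels and -0.364 points within 4375 clusters, so its direction depended on the comparison. The difference at high levels lay with cytosine after the CpG, which differed from purine by 2.74 points ± 0.87 on 19 of 19 autosomes. Thymine differed from purine by 0.685 points ± 1.21 on 12 of 19, within the spread.

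Among high cytosines the flanking bases on both sides sorted what was left after Dnmt1 knockdown. Those followed by cytosine kept 27.1% ± 1.44 of their control level, and those followed by thymine kept 24.0% ± 1.74. By the base just before the CpG, 28.3% was kept after adenine, 28.0% after cytosine, 26.2% after thymine and 21.8% after guanine. Guanine stood apart: the loss was smaller by 6.32 points ± 2.33 after adenine, by 6.05 points ± 1.34 after cytosine and by 4.70 points ± 1.75 after thymine than after guanine, each on 19 of 19 autosomes. By the base before that, cytosine (29.1%) and thymine (28.5%) were above adenine (23.6%) and guanine (22.2%).

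The 32 contexts spread the share kept from 18.7% to 34.4%. In tcCGc, 740 high cytosines averaged 31.5% in the Dnmt1 knockdown against 91.5% in control. In ggCGt, 638 high cytosines averaged 16.8% in the Dnmt1 knockdown against 89.9% in control. The next highest contexts were taCGc (34.1% kept) and ccCGc (31.0%), and the next lowest were agCGt (19.1%) and ggCGc (19.98%). Computed on the plus strand and on the minus strand, which come from different molecules of the same libraries, tcCGc kept 35.6% and 33.2%, and ggCGt kept 18.9% and 18.5%. Across the 32 contexts the 2 strands had a Pearson correlation of 0.92, with the library, its depth and its base composition shared between them.

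**Figure D2:**
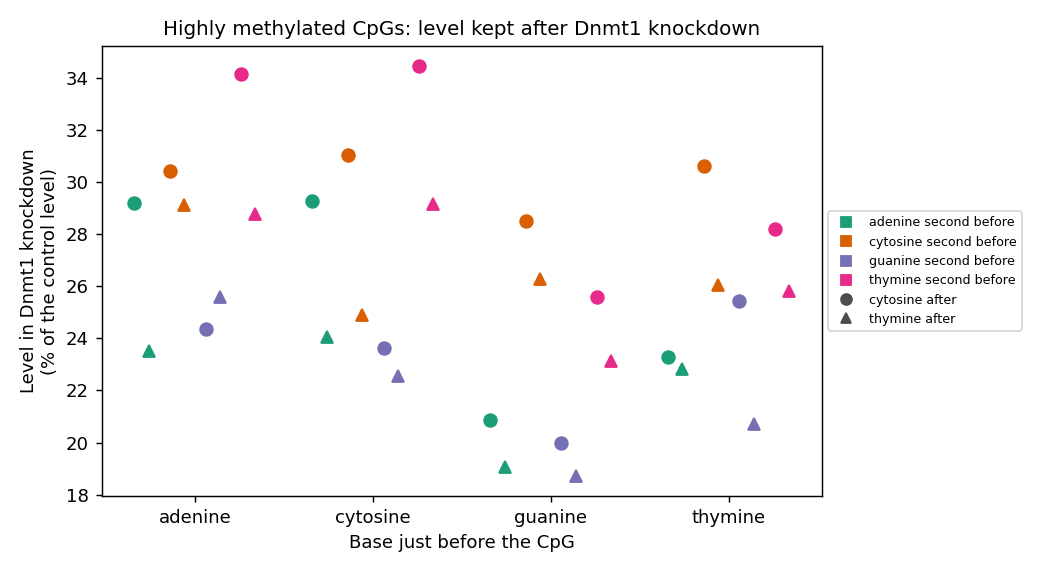
Mean level in the Dnmt1 knockdown as a percentage of the mean level in control (y axis, starting at 18) for highly methylated CpGs in each of the 32 contexts. The x axis gives the base just before the CpG, the colour the base before that, and the shape the base after. Contexts with guanine just before the CpG lie lowest, and the 2 contexts above 34% have thymine as the second base before and cytosine after.

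Some highly methylated cytosines stayed mostly methylated after Dnmt1 knockdown, and the contexts held them unevenly. Of 14295 high cytosines, 704 (4.92%) still had a level of at least 50% in the Dnmt1 knockdown, against 3.09% of those followed by a purine. The share was 5.82% with cytosine after and 3.72% with thymine after. In tcCGc it was 12.4% (92 of 740), in taCGc 14.4% (34 of 236), and in agCGt 1.03% (6 of 584). The order was also seen in the median, with 26.4% in tcCGc, 29.5% in taCGc and 15.8% in agCGt in the Dnmt1 knockdown. A level of 100% in all 6 libraries was listed for 70 of the high cytosines, and without these 70, in a check added after seeing the data, the high class kept 25.4% of its control level.

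Among intermediate cytosines the Dnmt1 difference ran from -57.0 to -41.1 points over the 32 contexts. The lowest were ggCGt (-57.0 ± 3.34 points) and gaCGt (-56.9 ± 4.14), and the highest were acCGc (-45.4 ± 4.56) and cgCGc (-41.1 ± 5.86), by the rule that a context needs at least 200 intermediate cytosines. These contexts also started at different levels, with control at 64.3% for ggCGt and 53.3% for cgCGc. Standardised to a common distribution of levels, ggCGt was at -56.2 points, gaCGt at -54.1, acCGc at -47.4 and cgCGc at -47.4.

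The Dnmt3a knockdown was the 1 of the 5 in which a pyrimidine after the CpG went with a larger loss beyond the spread. Intermediate cytosines averaged 45.4% in the Dnmt3a knockdown against 62.6% in control, a difference of -17.1 points ± 0.61, and those followed by a purine differed by -15.7 points ± 0.67. The excess loss was 1.42 points (difference of differences -1.42 ± 0.41), with the same sign on 19 of 19 autosomes. It was -1.40 points with levels matched in 10-point bins and -1.05 points within 4375 clusters, of which 53.9% had the sign of the mean. Among high cytosines the difference of differences was -0.569 points ± 0.368, with that sign on 17 of 19 autosomes. Within 4061 clusters it was -0.205 points, with 51.1% of clusters below 0, and in 4424 clusters of high mean level it was -0.318 ± 0.632, within the spread. Of the 140133 cytosines 7106 (5.07%) were lower by at least 20 points, where 5.87% of all cytosines tested were, and 56 were higher, where 0.0829% of all were. In the intermediate class 38.1% were lower by at least 20 points, against 33.0% of those followed by a purine.

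With Dnmt3a knockdown thymine and adenine after the CpG differed more clearly than cytosine and guanine did. Intermediate cytosines followed by thymine differed from control by -17.2 points ± 0.82 and those followed by adenine by -15.04, a difference of -2.18 points ± 0.69 on 19 of 19 autosomes, and -1.98 points within clusters. At high levels thymine and adenine differed by -1.55 points ± 0.58, again on 19 of 19. Cytosine and guanine after the CpG differed by -0.753 points ± 0.755 on 15 of 19 autosomes, just within its spread, and by -0.0684 points within clusters. Set against all purines outside MspI sites, cytosine differed by -1.33 points ± 0.60 on 18 of 19 autosomes, beyond the spread, and by -0.504 points within clusters. Between the 2 pyrimidines, intermediate cytosines followed by cytosine lost 17.0 points and those followed by thymine 17.2, a difference of 0.183 ± 0.944, within the spread. Within clusters the loss was smaller with cytosine after: the difference was 1.78 points between intermediate cytosines of 1550 clusters, and 1.72 ± 1.60 on 16 of 19 autosomes in 2064 clusters of intermediate mean level. At high levels those followed by cytosine lost less, -5.98 points against -7.10, a difference of 1.12 ± 0.58 on 19 of 19 autosomes.

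With the bases before the CpG taken into account, the Dnmt3a differences spread further. Over the 32 contexts the difference ran from -21.8 to -12.2 points at intermediate levels. Among contexts with at least 200 intermediate cytosines, the lowest were ctCGc (-19.3 points ± 2.90, 44.1% in the knockdown against 63.4% in control) and gaCGt (-19.2 ± 2.76, 48.4% against 67.6%). The highest were atCGc (-12.8 ± 3.94, 50.03% against 62.9%) and atCGt (-12.2 ± 3.35, 51.9% against 64.2%). The intervals of 1 SD of ctCGc and gaCGt overlap that of atCGc and not that of atCGt. The values on the plus and minus strands were -19.8 and -18.8 points for ctCGc, and -10.3 and -14.1 points for atCGt. The context taCGt, with 184 intermediate cytosines, and the context taCGc, with 112, were too few for the rule and had -21.8 and -19.7 points. By the base just before, the difference was -18.2 points after adenine, -17.2 after cytosine, -16.8 after guanine and -16.3 after thymine. The difference between adenine and guanine was -1.36 points ± 1.72 on 17 of 19 autosomes, which is within its spread. At high levels it was -1.39 points ± 0.997 on 18 of 19, beyond its spread. There cytosine and thymine differed from guanine by -0.239 ± 0.856 and -0.494 ± 0.832, both within the spread. Adenine and thymine were not compared directly.

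**Figure D3:**
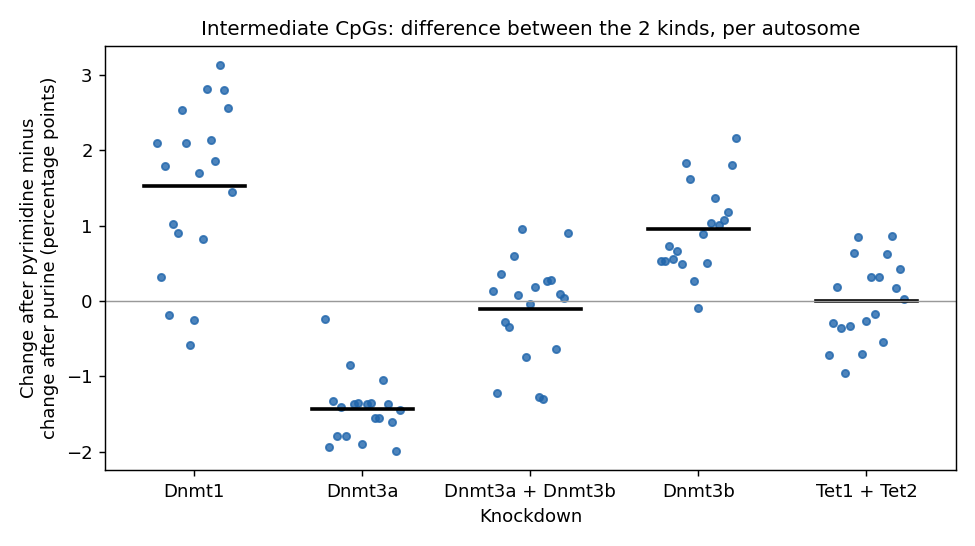
Difference of differences at intermediate CpGs, the change after a pyrimidine minus the change after a purine outside MspI sites, in percentage points (y axis), for each knockdown (x axis). Each point is 1 of 19 autosomes and each line their mean. All 19 autosomes are below 0 for Dnmt3a, 18 of 19 are above 0 for Dnmt3b and 16 of 19 for Dnmt1, and the points of the double and the Tet1 and Tet2 knockdowns lie on both sides of 0.

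The double Dnmt3a and Dnmt3b knockdown was further above the Dnmt3a knockdown at these CpGs than at those followed by a purine, and against control the 2 kinds differed by less than the spread. Intermediate cytosines averaged 51.0% in the double knockdown against 62.6% in control, a difference of -11.5 points ± 0.67. Those followed by a purine differed by -11.4 points ± 1.03, so the difference of differences was -0.101 ± 0.675, within its spread. Of the 140133 cytosines 3751 (2.68%) were lower by at least 20 points, where 3.45% of all were, and 110 were higher, where 0.127% of all were; in the intermediate class the lower share was 19.9% against 19.8% after a purine. Thymine and adenine after the CpG differed by -1.19 points ± 0.87 on 17 of 19 autosomes.

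Set directly against the Dnmt3a knockdown, which leaves the control out, the double knockdown read higher by 5.59 points ± 0.48 at intermediate cytosines followed by a pyrimidine. It read higher by 4.27 points ± 0.71 at those followed by a purine. The gap of 1.32 points ± 0.73 had the same sign on 19 of 19 autosomes. This gap equals the double knockdown's difference of differences from control minus that of Dnmt3a, and is not a separate measurement. In the double knockdown the difference from control ran from -14.9 to -8.04 points over the 32 contexts. Among those with at least 200 intermediate cytosines the lowest were gaCGt (-13.8 points ± 2.34) and ctCGc (-12.7 ± 2.58), and the highest atCGt (-8.30 ± 5.43) and atCGc (-8.04 ± 2.89). These 4 contexts are also the ends named for the Dnmt3a knockdown, and both sets of values are read against 1 control library. In the double knockdown the intervals of 1 SD of gaCGt and ctCGc overlap that of atCGt, and that of ctCGc also overlaps that of atCGc.

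The Dnmt3b knockdown read slightly higher than control, and more so after a pyrimidine. Intermediate cytosines averaged 65.3% in the Dnmt3b knockdown against 62.6% in control, a difference of 2.71 points ± 0.53, and those followed by a purine differed by 1.79 points ± 0.58. The difference of differences was 0.913 points ± 0.591, positive on 18 of 19 autosomes, 0.884 with matched levels and 0.926 within clusters. Of the 140133 cytosines 1054 (0.752%) were higher by at least 20 points, where 0.838% of all were, and 411 (0.293%) were lower, where 0.464% of all were. In the intermediate class 4.56% were higher, against 4.06% of those followed by a purine. Cytosine and thymine after the CpG differed by 0.567 points ± 0.850, within the spread.

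Read without the control, the single knockdowns of the 2 de novo enzymes differed more at these CpGs than at those followed by a purine. At intermediate cytosines followed by a pyrimidine the Dnmt3a knockdown was below the Dnmt3b knockdown by 19.8 points ± 0.69, at 45.4% against 65.3%. At those followed by a purine it was below by 17.5 points ± 0.65, at 47.4% against 64.9%. The gap between these differences was -2.34 points ± 0.69, and at high levels -0.846 points ± 0.302, each with the same sign on 19 of 19 autosomes. Each gap equals the Dnmt3a difference of differences from control minus that of Dnmt3b, and is not a separate measurement. Over the contexts the Dnmt3b difference from control ran from 0.858 to 5.49 points, with ccCGt (1.12 ± 2.72) and acCGt (1.28 ± 1.88) lowest and ttCGc (4.37 ± 3.27) and acCGc (4.57 ± 1.82) highest among contexts with at least 200 intermediate cytosines. The intervals of 1 SD of both lowest contexts overlap those of both highest.

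The Tet1 and Tet2 knockdown read higher than control at intermediate CpGs, and a difference between those followed by a pyrimidine and by a purine was not larger than the spread. Intermediate cytosines averaged 68.0% in the Tet1 and Tet2 knockdown against 62.6% in control, a difference of 5.43 points ± 0.53, and those followed by a purine differed by 5.45 points ± 0.53. The difference of differences was -0.0226 ± 0.546. Of the 140133 cytosines 1700 (1.21%) were higher by at least 20 points, where 1.53% of all were, and 395 (0.282%) were lower, where 0.358% of all were. In the intermediate class 7.73% were higher, against 7.36% of those followed by a purine.

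Within the pyrimidines the Tet1 and Tet2 difference was smaller with cytosine after, 4.90 points ± 0.52, than with thymine after, 5.98 points ± 0.77. That gap was -1.08 points ± 0.77 on 17 of 19 autosomes, -1.51 with matched levels and -1.50 within clusters. By the base before the CpG the difference was 6.17 points after adenine, 5.83 after cytosine, 5.24 after thymine and 4.49 after guanine, and cytosine exceeded guanine by 1.34 points ± 0.91 on 18 of 19 autosomes. Of the contexts with at least 200 intermediate cytosines, the lowest were cgCGc (1.56 points ± 2.96) and ggCGc (3.35 ± 1.56), and the highest were gaCGc (6.98 ± 2.19) and gcCGt (7.53 ± 1.70). The intervals of 1 SD of ggCGc and gaCGc overlap. In cgCGc the levels were 54.8% in the Tet1 and Tet2 knockdown and 53.3% in control, and in gcCGt they were 70.9% in the knockdown and 63.4% in control. Against the Dnmt3b knockdown, the other library above control, the Tet1 and Tet2 library was higher by 2.72 points ± 0.66 after a pyrimidine. After a purine it was higher by 3.66 points ± 0.66, a gap of -0.936 ± 0.531 on 19 of 19 autosomes. That gap too follows from the differences of differences from control and is not a separate measurement.

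**Figure D4:**
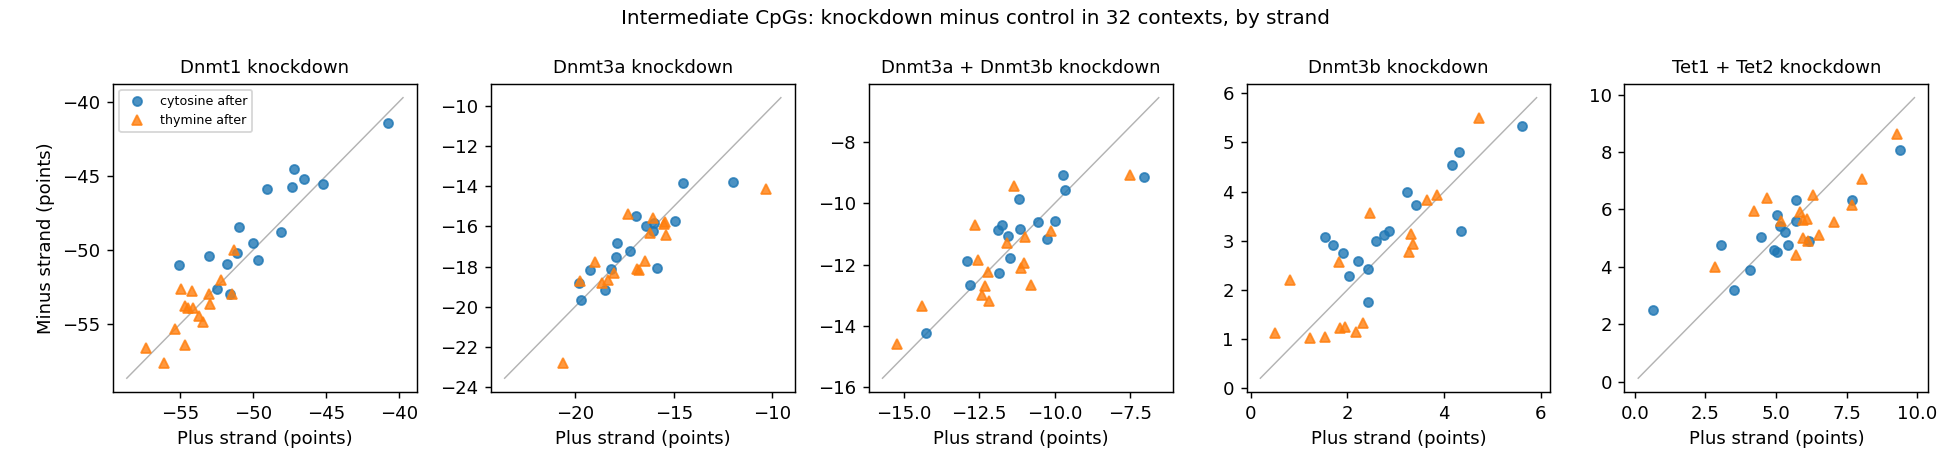
Knockdown minus control in percentage points for intermediate CpGs in each of the 32 contexts, computed from plus-strand cytosines (x axis) and from minus-strand cytosines (y axis), with 1 panel per knockdown and the line of equal values. Circles have cytosine after the CpG and triangles thymine. The points lie along the line in all 5 panels, with Pearson correlations of 0.92 for Dnmt1, 0.83 for Dnmt3a, 0.81 for the double knockdown, 0.83 for Dnmt3b and 0.83 for Tet1 and Tet2.

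At intermediate levels the contexts fell in a similar order on both strands. As the plot of contexts by strand shows, the 2 strands' values over 32 contexts correlated with r between 0.81 and 0.92 in the 5 knockdowns, and both strands share library, depth and composition. At high levels the correlation was 0.85 for Dnmt3a and 0.72 for the double knockdown. It was 0.41 for Tet1 and Tet2 and -0.12 for Dnmt3b, so at high levels the small Dnmt3b differences between contexts were not repeated from strand to strand.

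Neighbouring CpGs of 1 cluster were also methylated unequally by their next base, in every library. Over every class, control averaged 13.2% with cytosine after and 27.8% with thymine after, and over the intermediate class 60.4% and 64.8%. Within clusters the order was the opposite of these. Over the high class the order was the same as within clusters, with control at 90.9% with cytosine after and 89.8% with thymine after. So it was over the intermediate class in the Dnmt1 knockdown, at 11.5% and 10.5%. In 2064 clusters of intermediate mean level that held both kinds, cytosines followed by cytosine were above those followed by thymine by 2.93 points ± 0.91 in the Dnmt1 knockdown, 10.4 ± 2.4 with Dnmt3a knockdown and 10.7 ± 2.1 with the double knockdown. It was 8.58 points ± 1.74 in the Dnmt3b knockdown and 6.99 ± 1.40 in the Tet1 and Tet2 knockdown, against 8.63 ± 1.35 in control, each on 19 of 19 autosomes. In control the levels behind it were 66.0% with cytosine after and 57.3% with thymine after, and cytosine was above thymine in 74.5% of clusters. In 1612 clusters of high level it was 4.42 points with Dnmt1 knockdown, 5.37 with Dnmt3a knockdown, 4.96 with the double knockdown, 2.97 with Dnmt3b knockdown and 2.15 with Tet1 and Tet2 knockdown, against 3.08 in control, each on 19 of 19 autosomes. All pyrimidines against all purines outside MspI sites gave smaller differences in 5127 intermediate clusters: 1.33 points ± 0.83 in the Dnmt3a knockdown and 3.06 ± 1.07 in the Dnmt3b knockdown, against 2.29 ± 1.04 in control.

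**Figure D5:**
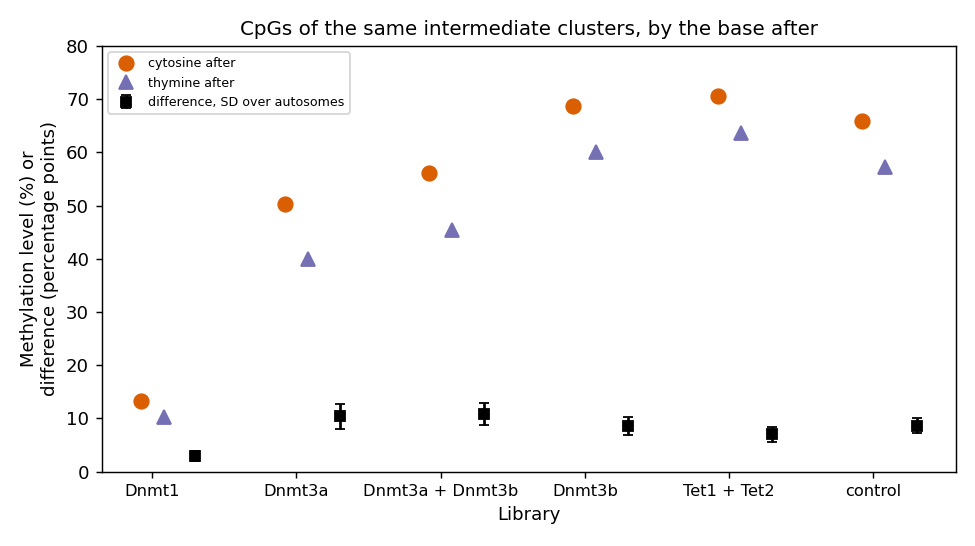
Mean methylation level in percent of CpGs followed by cytosine (circles) and by thymine (triangles) within the same 2064 clusters of intermediate level, in each library, with the difference between them in percentage points (squares, with the SD over 19 autosomes). Circles lie above triangles in all 6 libraries, and the difference is smallest in the Dnmt1 knockdown, at 2.93 points.

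In the Dnmt1 knockdown the order of the 2 pyrimidines by points lost at intermediate levels turned with the set compared. Over all intermediate cytosines those followed by cytosine lost less, -48.9 points against -54.3 with thymine, a difference of 5.37 points ± 2.10 on 19 of 19 autosomes, and 2.25 with matched levels. In the same clusters those followed by cytosine lost more, -52.7 points against -47.0, a difference of -5.70 points ± 1.61, also on 19 of 19. In those clusters the 2 kinds started at 66.0% and 57.3% in control, as given above, and the part of this starting level in the difference was not tested. The level left in the Dnmt1 knockdown did not turn. It was higher with cytosine after than with thymine after, at 11.5% against 10.5% over the class and 13.3% against 10.3% in the clusters.

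Clusters with several of these CpGs showed where they differed together. Of 9160 clusters with at least 5 of them, 424 (4.63%) had a mean at least 20 points under control in the Dnmt1 knockdown and 80% or more of their members lower, where 22.9% of clusters with at least 5 cytosines of any kind were. The count was 102 (1.11%) in the Dnmt3a knockdown, where 3.36% of clusters of any kind were, and 39 (0.426%) in the double knockdown, where 1.29% were. It was 3 higher clusters in the Dnmt3b knockdown and 3 in the Tet1 and Tet2 knockdown, or 0.0328% each, where 0.0799% and 0.222% of clusters of any kind were. Of the 9160 clusters 8732 were low, 319 intermediate and 109 high, and all 109 high clusters were lower in the Dnmt1 knockdown. Clusters of any kind can also hold MspI sites, and their split by class is not given here. The shares above are therefore not compared at like levels.

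The named clusters have the largest mean differences of all, and such a choice tends to overstate a difference. Positions are on mm9, and genes there are not named because no annotation of that build was used. For Dnmt1 knockdown these were chr16:91036772-91036859, where 8 cytosines averaged 9.79% in the knockdown against 86.1% in control, and chr6:29235923-29235982, where 5 averaged 17.1% against 92.9%. For Dnmt3a knockdown they were chr15:83332685-83332761, where 5 cytosines averaged 26.9% against 74.7% in control, and chr8:90356531-90356627, where 5 averaged 21.6% against 61.3%. The chromosome 15 cluster was also the largest fall of the double knockdown, at 38.6% against 74.7% in control, while it read 70.5% in the Dnmt3b knockdown. The next in the double knockdown was chr11:68246153-68246285, where 9 cytosines averaged 7.97% against 34.4% in control.

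The largest gains were smaller than the largest falls, and 3 of the 4 named lay in short runs on 1 strand. In the Dnmt3b knockdown chr16:36945137-36945160, with 6 plus-strand cytosines, averaged 41.6% against 21.1% in control, and chr13:65827759-65827774, with 5 minus-strand cytosines, averaged 25.4% against 5.12%. The chromosome 16 run read 40.9% in the Tet1 and Tet2 knockdown as well, while the chromosome 13 run read 5.20% there. In the Tet1 and Tet2 knockdown chr17:45885517-45885542, with 5 plus-strand cytosines, averaged 66.8% against 42.0% in control, and chr8:113262854-113262966, with 5 cytosines, averaged 74.6% against 53.7%. The 5 CpGs followed by a purine in this chromosome 8 cluster differed by -0.5 points, so these did not share the gain. The cluster was named for the gain of its members and not of these. The chromosome 17 run read 60.1% in the Dnmt3b knockdown, and the chromosome 8 cluster 60.6%. The cytosines of a run on 1 strand can come from the same reads and are not separate measurements.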

How the data were processed

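RRBS libraries of E14 cells were made after MspI digestion and bisulfite conversion, per the labels' protocols. CASAVA 1.8, Bismark 0.10.1 and the build mm9 appear, without their roles, per the submitters' processing notes. Trimming, duplicate removal and any coverage minimum: not given in the sources used here. The authors deposited 1 table per library with the methylation level of each CpG cytosine as a fraction with 3 decimals, its strand and 5 bases of context. No counts or coverage come with the fractions, so the planned kind of test on counts was not possible and no interval is given.

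The fractions were turned into percent and joined on chromosome, position, strand and context in pandas 2.3.3 (Python 3.11.15, NumPy 2.4.6). Plots were made with matplotlib 3.10.9. Classes of level use the median over the 6 libraries (below 20, 20 to 80, above 80), so that no single library sets them. Differences are means over cytosines, knockdown minus control, with the SD over 19 autosomes and the number of autosomes in the same direction. They were compared between kinds of CpG directly, within 10-point bins of level, and between cytosines of the same cluster (gaps of at most 100 bp). A cytosine was called at 20 points. Contexts were named by a rule: the 2 lowest and the 2 highest differences among contexts with at least 200 intermediate cytosines. The clusters named are up to 2 per knockdown with the largest mean difference past 20 points, at least 5 members and at least 80% of members in that direction. On simulated differences with a set shift for each kind of CpG, the means recovered the set difference between pyrimidine and purine. That check did not cover the reading of contexts, the classes, the matching of levels, the clusters or the calls. The members and lists were chosen with earlier results of these data known. Positions are 1-based.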

Additional observations from a re-analysis of the deposited data

How the results depend on the processing

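Of 30 alternatives for the differences at intermediate cytosines 21 moved them by less than the SD over autosomes, of 45 for the differences between pyrimidine and purine 42 did, and 8 of 20 counts of called cytosines stayed within 1.5 times. For the others the cause was not tested. With classes set on the 4 libraries other than the knockdown and control, the difference was -49.8 points for Dnmt1 and 4.57 for Tet1 and Tet2. With classes set on control alone it was -44.7 for Dnmt1, -16.3 for Dnmt3a, 3.63 for Dnmt3b and 6.47 for Tet1 and Tet2. Another setting took all cytosines listed in control and the knockdown, and also set the classes on the mean of these 2 libraries. With both changed the difference was -61.3 for Dnmt1, 3.38 for Dnmt3b and 6.19 for Tet1 and Tet2. The difference between pyrimidine and purine was -2.51 points for Dnmt3a and 1.70 for Dnmt3b with MspI sites among the purines, and within clusters it turned to -0.364 for Dnmt1. At 10 points, at 30 points and with the cytosines of control and the knockdown, lower cytosines numbered 18817, 2113 and 12592 for Dnmt3a and 13177, 823 and 6596 for the double knockdown, and higher ones 5525, 210 and 2821 for Dnmt3b and 7747, 373 and 3681 for Tet1 and Tet2. Leaving out the high cytosines at 100% in all 6 libraries was chosen after seeing the data; with it the share kept in the Dnmt1 knockdown was 25.4% and the difference between pyrimidine and purine 1.81 points. No paired analysis was possible because each group has 1 library, and for the same reason none could be left out. Unknown depth limits every value: a level from few reads counts as much as one from many.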

Other observations

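A few CpGs had both strands listed in all 6 libraries, with a pyrimidine after the CpG on 1 strand and a purine on the other. At 15 such sites of high level, from 11 clusters on 4 autosomes, the strand with the pyrimidine averaged 77.1% in the Dnmt1 knockdown and the other strand 38.9%, a difference of 38.2 points with an SD over sites of 36.7. In control the 2 strands averaged 92.5% and 89.6%. At 7 intermediate sites they averaged 11.3% and 5.74% in the Dnmt1 knockdown, and 66.0% and 59.8% in control. At 223 low sites they averaged 1.45% and 2.23% in the Dnmt1 knockdown, a difference of -0.778 points with an SD of 8.79. Another 11 high sites had a pyrimidine after the CpG on both strands. There the plus strand averaged 84.5% and the minus strand 39.96% in the Dnmt1 knockdown. That difference was 44.5 points with an SD over sites of 41.7, against 8.34 points in control. A large gap between strands was thus also seen with no purine on either. The sites share clusters, those of intermediate and high level are few, and no comparison was drawn from them.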
